A study of Mus musculus with 5 samples.

Results

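A set of 10 genes of the inflammasome and of interleukin-1 was followed through RNA-seq libraries of cultured mouse glia and neural precursors, chosen by symbol from the 20178 transcripts counted. They are the sensors Nlrp3, Nlrc4 and Aim2, the adaptor Pycard, the caspases Casp1 and Casp4, the pore-former Gsdmd, and the cytokines Il1a, Il1b and Il18. All 10 genes had a row, and none was left out. The rule used no measured value, although the genes were chosen with earlier results of these data known.

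Inflammasomes are protein assemblies that form when a sensor meets a danger signal. The sensor gathers the adaptor ASC, the product of Pycard, which in turn activates caspase-1, and caspase-1 cuts the precursors of interleukin-1β and interleukin-18 and opens gasdermin D, whose fragments form pores in the membrane. In the brain, microglia are known for high levels of these genes, and many of them are induced by NF-κB before any assembly forms.

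The study worked with glia of the ventral midbrain (VM), the region of the midbrain dopamine neurons, and these libraries include VM cultures given the transcription factors Nurr1 and Foxa2. There were 5 libraries, 1 per condition, all from ICR mice and from cells at passage 2. Cells of the VM, taken at postnatal day 5, gave an untransduced library and the libraries titled C and NF. Cortical cells of postnatal day 5 gave another astrocyte library, and cortex of embryonic day 12 gave neural progenitor cells (NPC). The VM and cortical libraries of day 5 are labelled as astrocyte progenitor cells, and the study describes its VM glial cultures as mixed with microglia. The viruses were lentiviruses in which the CMV promoter, active in many cell types, drives mouse Nurr1 or rat Foxa2, and the mock virus was the empty backbone. By title, C is the mock control and NF the Nurr1 and Foxa2 culture, but the treatment entries of the same samples give the reverse. The titles were followed here, and with the treatment entries each difference between NF and C would name the opposite treatment.

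Foxa2 had 216 reads in the NF-titled library, 15 in the C-titled library, 68 without virus, 1 in cortical astrocytes and 0 in NPC, which allows up to 0.150 CPM (reads scaled to the library total). Nr4a2, the gene of Nurr1, had 183 reads in NF, 53 in C, 81 without virus, 106 in cortical astrocytes and 93 in NPC. Among the VM libraries the NF-titled one thus held the most reads of each gene. This order goes with the titles, although the untransduced cells lay above the C-titled cells for both genes.

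Library totals lay between 20010818 and 22554835 reads. The C-titled library stood apart from the other VM libraries. The NF-titled and untransduced libraries differed by 2-fold or more in 0.668% of expressed genes downward and 0.322% upward (83 and 40 genes, or 68 and 55 with TMM scaling), whereas C against untransduced gave 8.48% downward and 7.30% upward. Expressed here means an FPKM (reads scaled to transcript length and library total) over 1 in at least 1 of the libraries compared. Of 12 astrocyte markers, 11 had an FPKM over 1 in each library, NPC included, and their summed level was 2628 CPM in untransduced VM cells, 2029 in C, 2210 in NF, 6110 in cortical astrocytes and 11478 in NPC. Gjb6, an astrocyte connexin, had 3 reads or fewer in the 4 astrocyte libraries. All 8 markers of neural progenitors exceeded an FPKM of 1 in NPC, and the 8 oligodendrocyte markers summed there to 7754 CPM, against 216 to 423 CPM in the other libraries, so that NPC is used here as the name on the label.

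The promoters of these genes give a view of their sequence that the choice of genes did not use. RefSeq windows on GRCm38.p6, from 250 bases before to 50 after a transcription start, were found for 9 of the 10 genes, all but Gsdmd, in 11 windows, since Nlrp3 and Casp4 each had 2 starts. The letters GAGGAAG, a site form of the myeloid factor PU.1, lay on either strand in windows of Nlrp3, Aim2, Pycard and Il1a, 4 of the 9 genes. Of all 32851 promoter windows 13.6% hold these letters. Here and below the share is per window, whereas the members are given per gene, and Nlrp3 and Casp4 had 2 windows each. The NF-κB consensus lay in windows of Casp4 and Nlrp3 and in 4.51% of all windows. The AP-1 letters TGANTCA, in the window of Il1a, are found in 7.81% of all windows. The TATA letters TATAAA, on the gene's strand in Il1a and Il1b, are in 8.32% of all windows. Casp1, Il18 and Nlrc4 had no match to these 4 motifs within the window, which says nothing of the factors. A match is a description of letters and not evidence of binding. The 150 bases before the start are printed for the genes with a match there, 5′ to 3′ on the gene's strand, to show where the letters sit. Capitals mark the matches, and CTTCCTC is GAGGAAG read on the opposite strand. For Nlrp3 and Casp4, 1 of the 2 starts is shown.
Nlrp3 (chr11:59542536-59542685, plus strand): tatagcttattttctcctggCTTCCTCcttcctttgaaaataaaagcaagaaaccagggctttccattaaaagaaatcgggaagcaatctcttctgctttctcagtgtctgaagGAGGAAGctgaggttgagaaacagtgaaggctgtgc
Aim2 (chr1:173420454-173420603, plus strand): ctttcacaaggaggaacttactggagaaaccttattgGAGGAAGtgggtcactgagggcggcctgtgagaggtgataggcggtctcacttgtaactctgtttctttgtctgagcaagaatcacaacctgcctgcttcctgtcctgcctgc
Pycard (chr7:127993868-127994017, minus strand): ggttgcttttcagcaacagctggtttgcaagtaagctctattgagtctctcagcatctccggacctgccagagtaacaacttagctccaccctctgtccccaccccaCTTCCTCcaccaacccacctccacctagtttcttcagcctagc
Il1a (chr2:129309973-129310122, minus strand): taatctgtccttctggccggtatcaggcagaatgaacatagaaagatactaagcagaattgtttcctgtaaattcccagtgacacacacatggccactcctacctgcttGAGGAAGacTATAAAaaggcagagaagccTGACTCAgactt
Il1b (chr2:129371140-129371289, minus strand): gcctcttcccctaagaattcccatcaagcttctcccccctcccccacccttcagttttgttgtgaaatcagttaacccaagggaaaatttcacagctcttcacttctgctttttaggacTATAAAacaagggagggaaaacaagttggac
Casp4 (chr9:5308699-5308848, plus strand): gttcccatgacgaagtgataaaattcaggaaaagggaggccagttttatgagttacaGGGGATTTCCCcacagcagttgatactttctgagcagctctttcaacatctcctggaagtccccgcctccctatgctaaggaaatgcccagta
In Il1a the letters GAGGAAG at bases -41 to -35 from the start, the TATA letters at -32 to -27 and the AP-1 letters at -12 to -6 followed each other without overlap. In Nlrp3 GAGGAAG stood at -36 to -30 and again, on the opposite strand, at -130 to -124. In Pycard it stood at -43 to -37, and in Aim2 farther out, at -113 to -107. The NF-κB match of Nlrp3 lay at the other, upstream start and is not in the printed stretch. The NF-κB matches of Casp4 at the start shown spanned bases -93 to -83 and overlapped one another, on both strands. The NF-κB, PU.1 and AP-1 letters did not overlap in any of these windows.

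The levels came first. Per length, the 10 genes differed widely within a library. In untransduced VM cells Casp4, the mouse caspase-11 that binds bacterial lipopolysaccharide inside the cell, was the highest of the 10, with an FPKM of 41.7, or 43.4% of their summed FPKM. Gsdmd followed with an FPKM of 15.6 and Casp1 with 14.6. The sensors lay at the bottom, with an FPKM of 1.22 for Aim2, 0.955 for Nlrp3 and 0.244 for Nlrc4. An FPKM of 1 was exceeded by 8 of the genes in untransduced VM cells, 10 in C, 6 in NF, 6 in cortical astrocytes and 3 in NPC. The make-up differed as well. Il1a was the highest of the 10 in C, with 32.9% of the summed FPKM, and Il18 in NPC, with 53.0%, whereas Casp4 led in the other libraries.

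**Figure D1:**
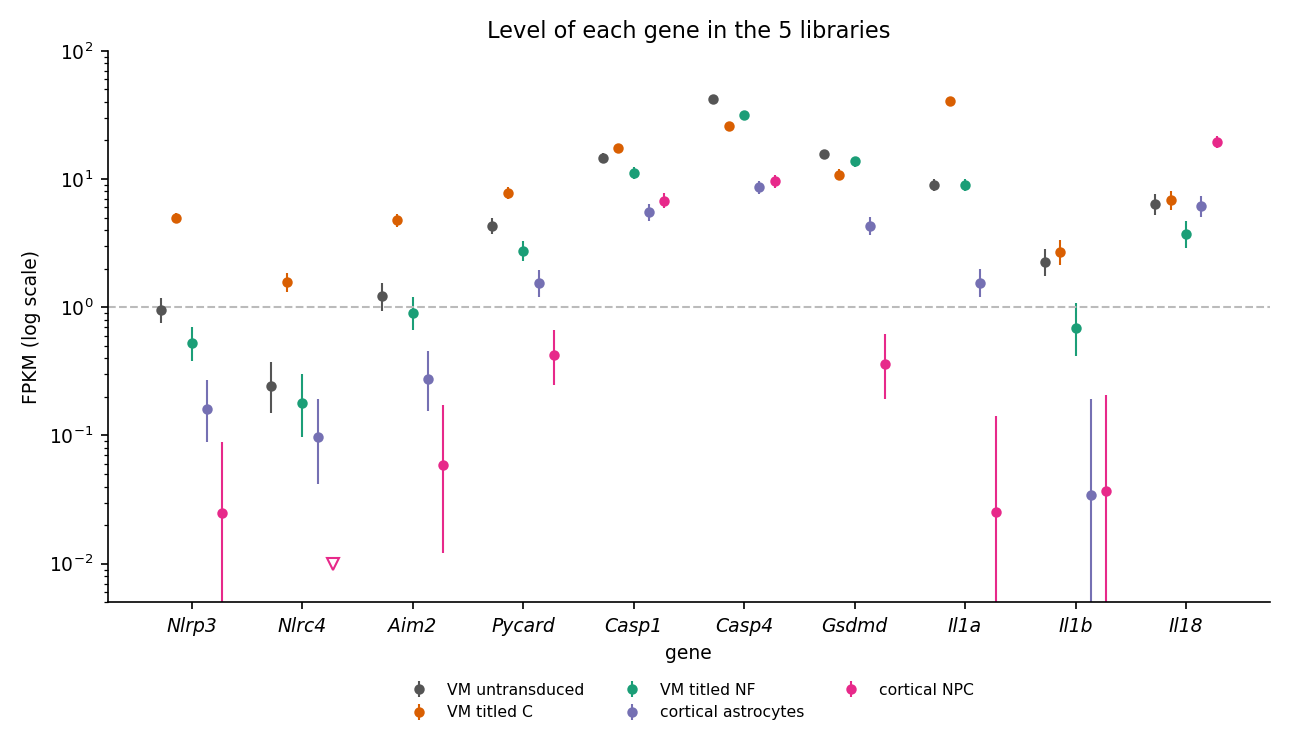
FPKM on a log axis for the 10 genes in the 5 libraries, 1 point per library, with the exact 95% Poisson interval of the count, cut off at the lower edge of the axis. The open triangle marks Nlrc4 in NPC, which had 0 reads, and the dashed line an FPKM of 1. The orange points (C) lie highest for Nlrp3, Nlrc4, Aim2, Pycard, Casp1, Il1a and, within counting error of untransduced cells, Il1b, and the pink point (NPC) for Il18.

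**Figure D2:**
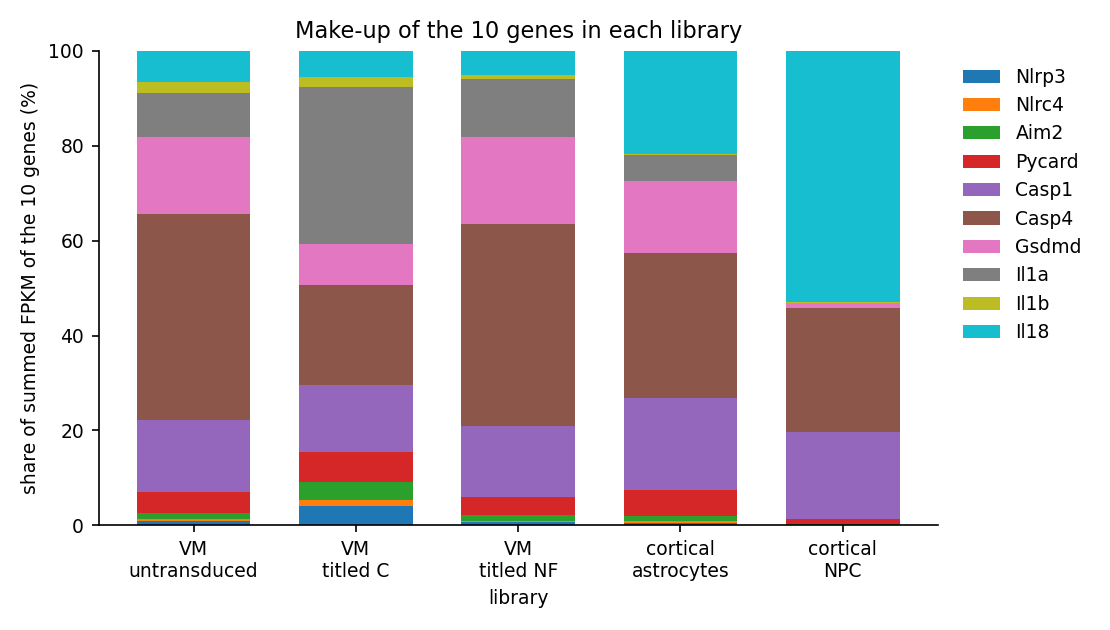
Share of each gene in the summed FPKM of the 10 genes, in percent, in each library, with no error shown. Casp4 takes 43.4% in untransduced VM cells, 21.1% in C and 42.6% in NF, Il1a takes 32.9% in C, and Il18 takes 53.0% in NPC.

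The first question was how the NF-titled culture differed from the C-titled one. In NF, 6 of the 10 genes were lower by 2-fold or more than in C and none was higher, beside 9.73% of all expressed genes lower and 9.53% higher. The 6 were all the sensors, the adaptor, Il1a and Il1b. Nlrp3, Nlrc4, Aim2 and Il1b had an FPKM over 1 in C and not in NF, and 2 genes were counted when an FPKM over 1 was required in both libraries. The median log2 ratio of the 10 genes was -1.71, against -0.02 over all 12701 expressed genes. Casp4 and Gsdmd were slightly higher in NF. Since each condition had 1 library, the treatment could not be tested, and the intervals given are exact 95% intervals of the split of reads, for counting error alone.

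Nlrp3 (chr11:59541569-59566955), the sensor of potassium loss and many other stresses, had 82 reads in untransduced VM cells, 452 in C, 43 in NF, 14 in cortical astrocytes and 2 in NPC. It was 9.48-fold lower in NF than in C, a log2 ratio of -3.23 (-3.73 to -2.79). C lay far above every other library, and each neighbouring pair in the order of levels differed beyond counting error. Nlrc4 (chr17:74426255-74459144), which responds to bacterial flagellin and secretion needles through the NAIP proteins, had 20, 136, 14, 8 and 0 reads in the same order of libraries. Its ratio of NF to C was -3.09 (-4.04 to -2.33), 8.76-fold lower, whereas untransduced cells and NF, and NF and cortical astrocytes, did not differ beyond counting error. Aim2 (chr1:173349547-173466040), a sensor of DNA in the cytosol, had 66, 274, 47, 15 and 3 reads. It was 5.26-fold lower in NF than in C, with a log2 ratio of -2.38 (-2.87 to -1.94). All the sensors thus had their highest level in C, at 6.03 CPM or more, and 0.150 CPM or less in NPC.

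Pycard (chr7:127991373-127993867), the adaptor that sensors share, had 195 reads in untransduced VM cells, 375 in C, 120 in NF, 71 in cortical astrocytes and 18 in NPC. It was 2.82-fold lower in NF than in C, at -1.49 (-1.80 to -1.19), a smaller difference than that of any sensor, with intervals that do not overlap. Casp1 (chr9:5298517-5307281), the protease that cuts the cytokine precursors, had 475, 593, 346, 179 and 207 reads. Its ratio of NF to C was -0.63 (-0.82 to -0.43) and did not reach 2-fold. Casp4 (chr9:5308849-5336791), its neighbour on chromosome 9, had 1290, 852, 935, 268 and 280 reads. Its highest level was in untransduced cells, and NF stood slightly above C, at 0.28 (0.15 to 0.42). Gsdmd (chr15:75862144-75867408), whose product caspase-1 and caspase-11 both cut, had 593, 436, 497, 165 and 13 reads and a ratio of 0.34 (0.15 to 0.53). The caspases and the gasdermin were among the most abundant of the 10 and the least different between NF and C.

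Il1a (chr2:129299609-129310186), whose product is active without cleavage and can also enter the nucleus, had 378 reads in untransduced VM cells, 1808 in C, 362 in NF, 66 in cortical astrocytes and 1 in NPC. NF lay 4.50-fold below C, at -2.17 (-2.34 to -2.01), and was level with the untransduced cells, at 17.8 and 17.7 CPM. Il1b (chr2:129364569-129371164), the secreted cytokine that needs caspase-1, had 65, 82, 19, 1 and 1 reads. It was 3.89-fold lower in NF than in C, at -1.93 (-2.76 to -1.23), but C and the untransduced cells did not differ beyond counting error, at 0.25 (-0.23 to 0.75). Il18 (chr9:50554700-50581841), the inducer of interferon-γ in lymphocytes, had 118, 134, 66, 115 and 342 reads. Its ratio of NF to C was -0.87 (-1.32 to -0.44), short of 2-fold. Il1a and Il1b thus had their highest levels in VM libraries and Il18 in NPC.

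The next question was on which side of the untransduced library these differences lay, and here the comparisons share libraries, so that their values are set side by side without any count of shared genes. In C against untransduced VM cells, Nlrp3, Nlrc4, Aim2 and Il1a were higher by 2-fold or more, 4 of 10 genes beside 7.30% of all expressed genes, and none was lower, beside 8.48%. Nlrp3 and Nlrc4 were under an FPKM of 1 without virus, and with an FPKM over 1 in both libraries 2 genes were counted. Nlrc4 was 6.42-fold higher, with a log2 ratio of 2.65 (2.00 to 3.44), Nlrp3 5.21-fold, Il1a 4.52-fold and Aim2 3.92-fold. Pycard was 1.82-fold higher and Casp1 1.18-fold. Casp4 was 1.60-fold lower in C, at -0.68 (-0.81 to -0.55), and Gsdmd 1.44-fold lower, at -0.53 (-0.71 to -0.35). The median of the 10 genes was 0.56 against -0.01 over all expressed genes. So the sensors and Il1a were on one side of the untransduced level in C, and the lipopolysaccharide-binding caspase and the gasdermin on the other.

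In NF against untransduced cells, which leaves the C-titled library out, Il1b was lower by 2-fold or more, 1 of the 8 expressed genes, beside 0.668% of all expressed genes lower and 0.322% higher. It had 19 reads against 65, 3.27-fold lower, with a ratio of -1.68 (-2.53 to -0.95). Its FPKM was 2.25 without virus and 0.689 in NF, so that 0 genes were counted when an FPKM over 1 was required in both libraries. None of the other genes reached 2-fold. The ratio of Il1a was 0.00 (-0.21 to 0.22), and those of the remaining genes lay between -0.86 and -0.19, with a median over all 10 of -0.43 against -0.05 for all expressed genes. Of the 10 ratios 9 were below 0, beside 57.5% of all expressed genes. This closeness of NF to the untransduced library was not particular to the 10 genes. Of all expressed genes, 0.668% were lower and 0.322% higher by 2-fold or more.

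**Figure D3:**
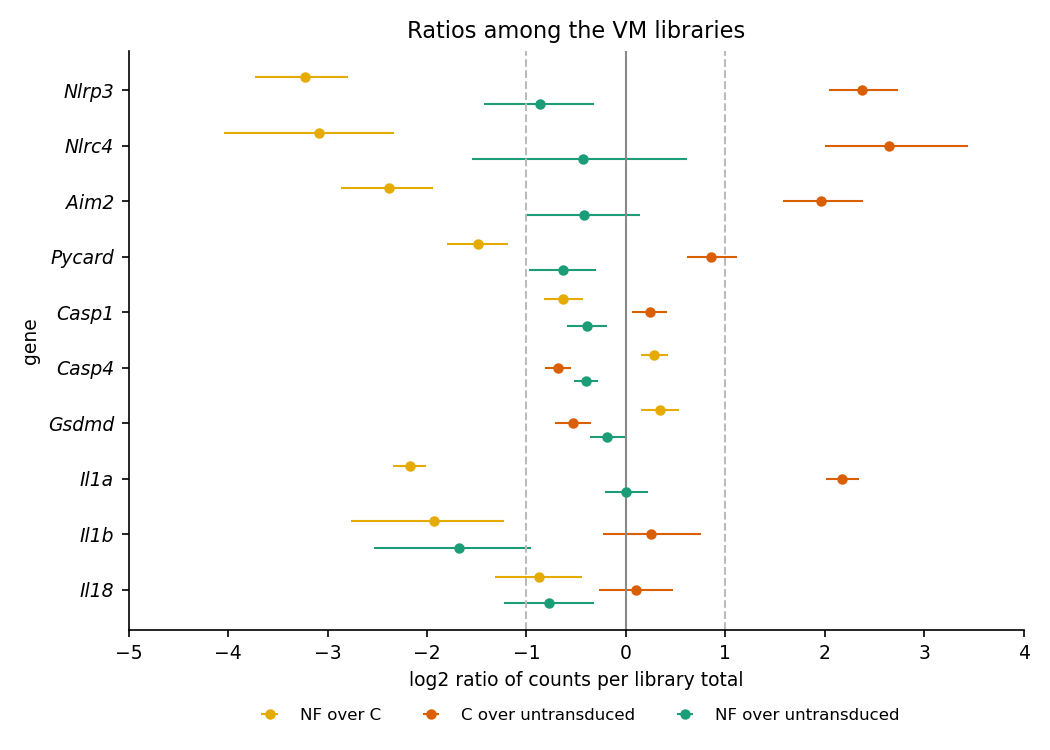
Log2 ratios of the 10 genes among the VM libraries, each point with the exact 95% interval of the split of reads and dashed lines at 2-fold. The ratios of NF over C (yellow) reach -3.23 for Nlrp3, those of C over untransduced (orange) reach 2.65 for Nlrc4, and those of NF over untransduced (green) lie between -0.86 and 0.00 except for Il1b at -1.68.

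Ratios between genes within a library do not depend on the library total. The FPKM of Il1a was 3.98 times that of Il1b in untransduced cells (3.05 to 5.26), 15.1 times in C (12.1 to 19.1) and between 8.22 and 21.9 times in NF, so that C and NF, which differed in both genes, had ratios with overlapping intervals. The FPKM of Casp4 was 2.85 times that of Casp1 in untransduced cells, 2.83 times in NF and 1.51 times in C (1.36 to 1.68). Casp1 had 3.42 times the FPKM of Pycard in untransduced cells, 4.05 times in NF and 2.22 times in C. The FPKM of Nlrp3 was 0.785 times that of Aim2 in untransduced cells (0.561 to 1.10), 1.04 times in C (0.895 to 1.22) and 0.578 times in NF (0.373 to 0.893). The interval of untransduced cells overlapped those of C and NF, whereas those of C and NF fell just short of overlap.

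Microglial markers moved with the sensors and Il1a. In bulk libraries fewer cells of a type and less RNA per cell cannot be told apart. Of 24 microglial markers 23 had a row, and their summed level was 548 CPM in untransduced VM cells, 2139 in C, 405 in NF, 195 in cortical astrocytes and 30.9 in NPC. Of the 19 expressed markers 18 were lower by 2-fold or more in NF than in C, beside 9.73% of all expressed genes. Their ratios ran from -8.06 to -0.65, with a median of -2.66. In C against untransduced cells 18 of 19 were higher by 2-fold or more, beside 7.30% of all expressed genes. Csf1r, the receptor for the growth factor on which microglia depend, had 527 reads in untransduced cells and 3199 in C, and Spi1, which encodes PU.1, had 226 and 1711, with 149 in NF. Siglech had 0 reads in all 5 libraries. Fcrls, another microglial marker, had 734 reads in C against 1 in untransduced cells and 2 in NF. In NPC, 15 of the 23 markers had 3 reads or fewer.

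Set against the microglial sum, the genes divided. Per 1000 CPM of microglial markers, Aim2 had 5.65 CPM in untransduced cells, 5.68 in C and 5.71 in NF. Il1a had 32.4, 37.5 and 44.0 CPM, and Nlrp3 had 7.02, 9.37 and 5.22. Nlrc4 had 1.71, 2.82 and 1.70 CPM. By plain CPM these genes were 3.92-fold or more higher in C than in untransduced cells, and on this scale none of them differed by 2-fold between C and either of the other VM libraries. Casp4 had 111, 17.7 and 114 CPM on the same scale, Gsdmd 50.8, 9.04 and 60.3, and Casp1 40.7, 12.3 and 42.0. C, highest in microglial markers, was thus lowest for these genes. The division alone gives this order, since by plain CPM they differed by less than 2-fold among the VM libraries. Il18 had 10.1, 2.78 and 8.01 CPM. Pycard had 16.7, 7.77 and 14.6 CPM and Il1b 5.57, 1.70 and 2.31. Both were lower in NF than in C by plain CPM and higher in NF on this scale, by 0.91 and 0.44 as log2 ratios. No interval was made on this scale. Il1b had 19 reads in NF and 82 in C, so that its change of direction is not shown to exceed counting error. The part of microglial content in any of these differences was not tested.

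**Figure D4:**
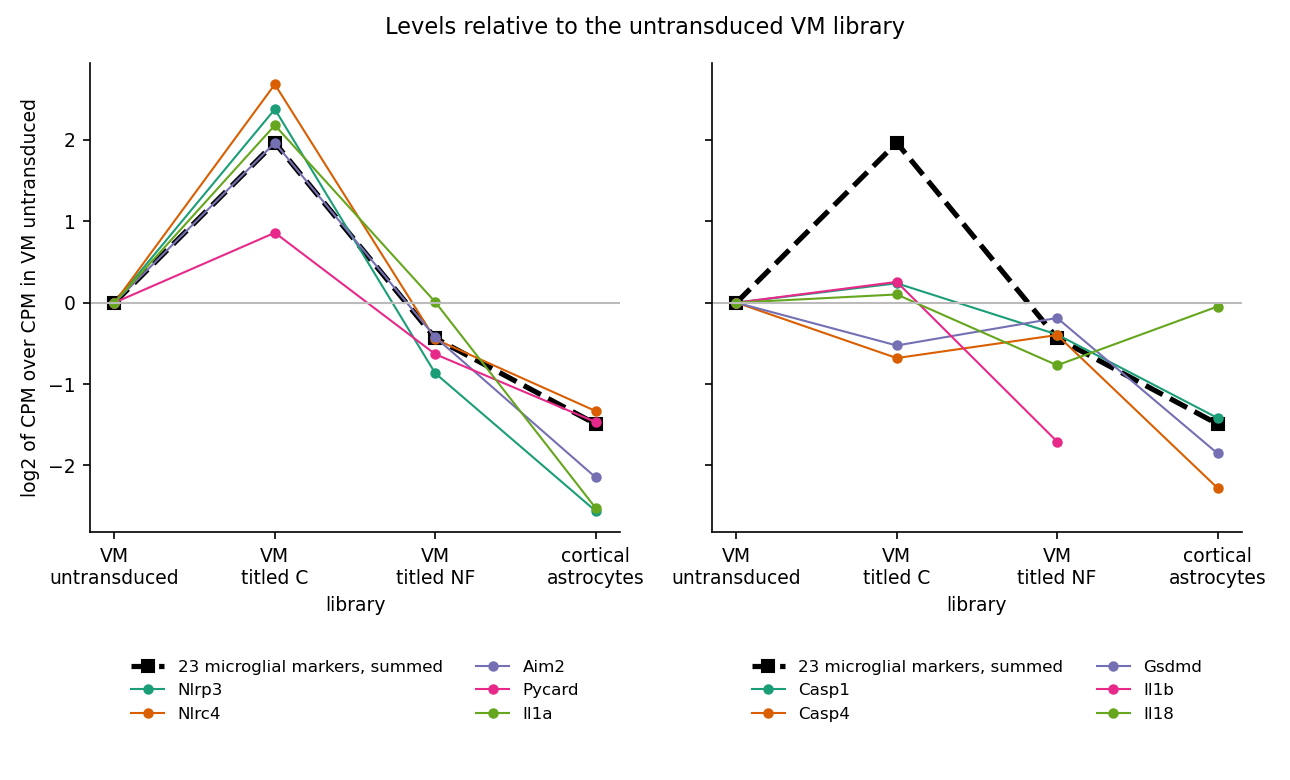
Log2 of the CPM over that in untransduced VM cells, for the 10 genes in 2 panels and, as a dashed black line, for the summed CPM of 23 microglial markers. Lines join the points of 1 gene and imply no order of libraries, values with 3 reads or fewer are left out, and no error is drawn. On the left Nlrp3, Nlrc4, Aim2 and Il1a peak in C close to the markers and Pycard lower, and on the right every gene stays within 2-fold of its untransduced level in C.

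Markers of other cells moved as well. Of the 7 expressed oligodendrocyte markers 6 were lower by 2-fold or more in NF than in C, beside 9.73% of all expressed genes and with a median of -3.22. In C against untransduced cells 6 were higher by 2-fold or more, beside 7.30% and with a median of 1.75. Mbp, a protein of the myelin sheath, had 655 reads without virus, 3543 in C, 277 in NF, 251 in cortical astrocytes and 75411 in NPC. Cnp, which had more reads than any other gene of that list in the VM libraries, had 4573, 3709 and 3879 reads there. The border macrophage list summed to 64.5 CPM in untransduced cells, 149 in C, 41.4 in NF, 11.4 in cortical astrocytes and 0.150 in NPC, with Cd163 at 0 in cortical astrocytes. The list of neutrophils and monocytes summed to 6.62, 26.2, 2.46, 1.07 and 0.0999 CPM, with Retnlg, a neutrophil gene, at 0 in all 5 libraries. Lymphocyte markers summed to 2.00 CPM or less in each library. The summed level of fibroblast and mural markers was lowest in C among the VM libraries, at 3627 CPM in untransduced cells, 2135 in C and 3591 in NF. It was 1531 CPM in cortical astrocytes and 459 in NPC. Single markers did not share 1 direction: of the 8, 4 lay lower and 4 higher in C than in untransduced cells, with a median of -0.22. Endothelial markers summed to 60.8, 135, 68.3, 21.1 and 7.25 CPM, with 3 reads or fewer of Cldn5 in each library, and neuronal markers to 844, 717, 714, 570 and 1174 CPM. Their part in the differences was not tested.

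The third question was the region. Cortical astrocytes lay below untransduced VM cells by 2-fold or more in 7 of the 8 expressed genes, and none was higher, beside 9.89% of all expressed genes lower and 4.49% higher. The median of the 10 genes was -1.98 against -0.05 over all expressed genes. Casp4 was 4.84-fold lower, with 268 reads against 1290 and a ratio of -2.27 (-2.47 to -2.09), and Gsdmd 3.62-fold lower, at -1.85 (-2.11 to -1.60). Il1a was 5.76-fold lower, Aim2 4.43-fold, Pycard 2.76-fold and Casp1 2.67-fold. Il1b had 1 read in cortical astrocytes and 65 in VM cells, a ratio of -5.46 (-11.36 to -3.50), or -3.55 with 5 reads added. Nlrp3, at 14 reads against 82, and Nlrc4, at 8 against 20, were lower too but had an FPKM under 1 in both libraries. Il18 was the exception, with 115 against 118 reads and a ratio of -0.05 (-0.43 to 0.34), whose sign turned under TMM and DESeq2 scaling. Microglial markers were lower in cortical astrocytes in the same comparison, 16 of 17 expressed ones by 2-fold or more, with a median of -1.64, while 7 of the 11 expressed astrocyte markers were higher by 2-fold or more.

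The last comparison was of cortical NPC with cortical astrocytes, where cell type and stage differ together and cannot be told apart. Pycard, Gsdmd and Il1a were lower by 2-fold or more in NPC and Il18 higher, 3 and 1 of 6 expressed genes, beside 17.9% of all expressed genes lower and 20.1% higher. The 3 lower genes had an FPKM under 1 in NPC, and the count was 0 with an FPKM over 1 required in both libraries and 6 with no such filter. The median over the 9 genes with enough reads was -2.06, or -1.35 with 5 reads added. Il18 had 342 reads against 115, 3.19-fold higher, with a ratio of 1.67 (1.36 to 1.99), and at 17.1 CPM it lay 2.88-fold above its next level, that of C. Gsdmd had 13 reads against 165, 11.8-fold lower, at -3.52 (-4.51 to -2.75). Pycard was 3.68-fold lower, at -1.85 (-2.71 to -1.12). Il1a had 1 read against 66, a ratio of -5.39 (-11.27 to -3.42), or -3.51 with 5 reads added, and Il1b 1 read in each, which allows no ratio. The sensors were at or under 3 reads in NPC. Nlrc4 had 0 reads there against 8 in cortical astrocytes, at least 2.49-fold lower when 3 reads are taken for NPC.

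The caspases did not follow the gasdermin in NPC. Casp1 had 207 reads in NPC against 179, a ratio of 0.31 (0.01 to 0.61), and Casp4 280 against 268, at 0.16 (-0.08 to 0.41), which turned negative under each of the other scalings. With library totals the median over all expressed genes stood at 0.19 in this comparison, and the other scalings moved it by -0.18 to -0.17. In NPC the FPKM of Casp1 was 16.1 times that of Pycard (9.96 to 27.8), against 3.54 times in cortical astrocytes (2.67 to 4.73). Both caspases, Il18 and the near absence of microglial markers were thus found in the same library, with 453 CPM of Casp4 and 553 CPM of Il18 per 1000 CPM of those markers, against 64.1 and 27.5 in cortical astrocytes.

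**Figure D5:**
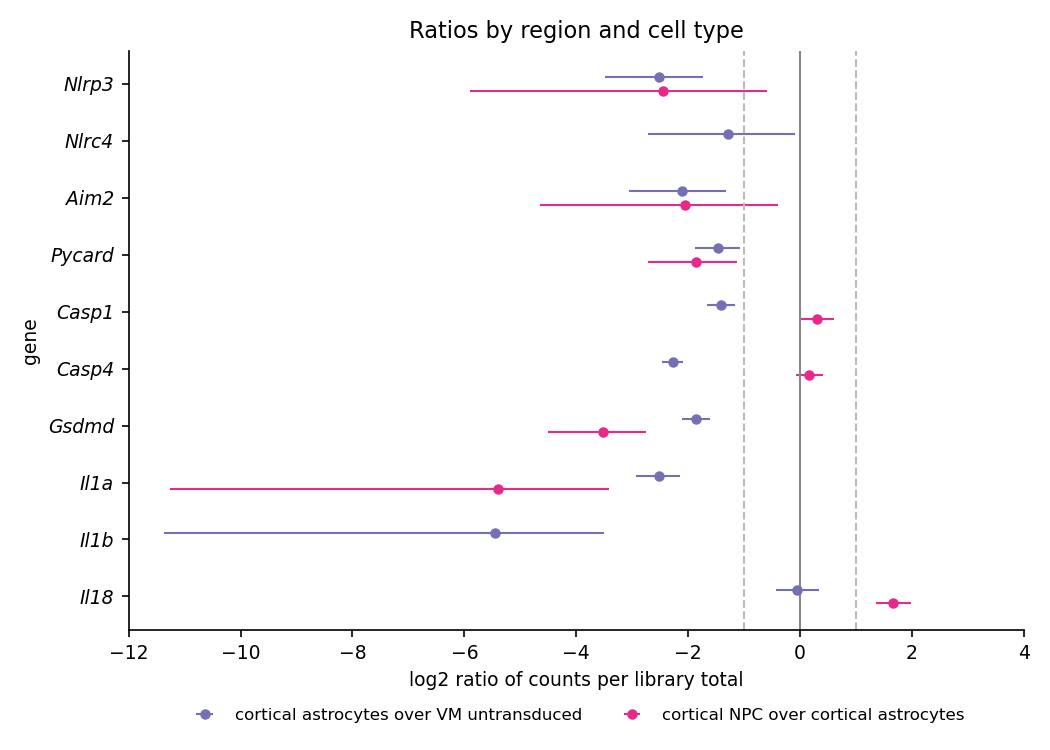
Log2 ratios of the 10 genes in cortical astrocytes over untransduced VM cells (purple) and in cortical NPC over cortical astrocytes (pink), with exact 95% intervals of the split of reads and dashed lines at 2-fold. Il18 stands at -0.05 and 1.67, and Casp1 and Casp4 lie at 0.31 and 0.16 in the NPC comparison, Casp4 below 0 under the other scalings. Ratios whose interval has no lower end (Nlrc4 in NPC) or with 1 read in both libraries (Il1b in NPC) are not drawn.

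The rest of the pathway was taken from lists of other sensors, regulators, effectors of pyroptosis, ligands, receptors and signalling proteins. Of 16 other sensors, 7 were expressed in NF against C, of which 3 were lower by 2-fold or more and none was higher, beside 9.73% and 9.53% of all expressed genes. Naip2 and Naip5, partners of Nlrc4 that bind bacterial proteins, had 770 and 219 reads in C and 76 and 28 in NF, with ratios of -3.18 (-3.55 to -2.85) and -2.80 (-3.44 to -2.25). Naip genes are close copies, and reads may be split among them. In NPC both had 0 reads, which allows up to 0.150 CPM. Ifi204, a relative of Aim2 that also has close copies, had 1089 reads in untransduced VM cells, 216 in cortical astrocytes and 8 in NPC.

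Of 10 regulators of the inflammasome 1 was lower and 2 were higher by 2-fold or more in NF than in C, near the 9.73% and 9.53% of all expressed genes, with a median of -0.22. Between NPC and cortical astrocytes 5 of 10 were lower and 2 higher by 2-fold or more, beside 17.9% and 20.1% of all expressed genes. Txnip, a binder of thioredoxin that can attach to Nlrp3, had 1484 reads in NPC and 24321 in cortical astrocytes, a ratio of -3.93 (-4.01 to -3.86). Panx1, a membrane channel for ATP, was higher in NPC, with 1956 reads against 446, and Card6, a protein with a caspase recruitment domain, was lower, with 20 against 166. Of the effectors of pyroptosis, 1 of 4 expressed was lower by 2-fold or more in NF than in C, beside 9.73% of all expressed genes, and 2 of 4 in NPC than in cortical astrocytes, beside 17.9%, among them the apoptotic and inflammatory protease Casp8, with 89 reads against 490. Casp12, a further inflammatory caspase, named after its values were seen, had 1630 reads in untransduced VM cells, 1139 in C, 1438 in NF, 477 in cortical astrocytes and 415 in NPC. Its ratio of C to untransduced was -0.60 (-0.71 to -0.49), beside -0.68 for Casp4.

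Among the ligands and their inhibitors, 3 of 3 expressed genes were lower by 2-fold or more in NF than in C, beside 9.73% of all expressed genes. Il1rn, which encodes the antagonist that occupies the interleukin-1 receptor without signalling, had 739 reads in untransduced VM cells, 3896 in C, 330 in NF, 74 in cortical astrocytes and 2 in NPC. NF lay below C with a ratio of -3.41 (-3.58 to -3.25) and below the untransduced cells at -1.10 (-1.29 to -0.91). The FPKM of the antagonist was 1.72 times that of Il1a in C (1.62 to 1.82), 1.56 times in untransduced cells (1.38 to 1.77) and 0.727 times in NF (0.624 to 0.846), so that the antagonist lay above Il1a in C and untransduced cells and below it in NF. Against Il1b the antagonist stood at 25.9 times in C (20.8 to 32.7), 6.20 times in untransduced cells (4.81 to 8.12) and 9.47 times in NF (5.97 to 15.9). Il33, an alarm cytokine of the same family, had 1415 reads in untransduced VM cells, 197 in cortical astrocytes and 40 in NPC. Il18bp, the soluble inhibitor of interleukin-18, had an FPKM 0.998 times that of Il18 in C (0.800 to 1.25) and 0.362 times in untransduced cells (0.265 to 0.491). The ratio was 0.591 in NF (0.412 to 0.847), 0.592 in cortical astrocytes (0.452 to 0.776) and 0.107 in NPC (0.0796 to 0.141).

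Of the receptor genes, 4 of 5 expressed were higher by 2-fold or more in C than in untransduced cells, beside 7.30% of all expressed genes and with a median of 1.38, and 3 of 5 were lower by 2-fold or more in NF than in C, beside 9.73% and with a median of -1.18. Il1r1, the signalling receptor, had 597 reads in untransduced VM cells, 934 in C, 492 in NF, 469 in cortical astrocytes and 248 in NPC, and reached 2-fold in none of the comparisons. Its FPKM was 7.06 to 29.6 times that of Il1r2, the decoy receptor, which had 12 reads or fewer in each library. Il1rap, the second chain of the receptor, was higher by 2-fold or more in C than in untransduced cells, at 1.25 (1.10 to 1.39), and in cortical astrocytes than in VM cells, at 1.03 (0.89 to 1.18), and lower in NPC than in cortical astrocytes, at -1.53 (-1.71 to -1.36). Il18r1, a chain of the interleukin-18 receptor, had 4 reads or fewer in every library. Myd88, the adaptor under the receptor, had 680, 651, 569, 553 and 488 reads from untransduced VM cells to NPC and differed by less than 2-fold throughout. Of 10 signalling genes 2 were lower by 2-fold or more in NF than in C, beside 9.73% of all expressed genes, among them Irak3, an inhibitor of this signalling, at 209 against 1103 reads and a ratio of -2.25 (-2.47 to -2.04).

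The genes whose profile over the 5 libraries was most like each of the 10 were found by the root mean square difference of their centred log2 levels, among 13419 transcripts with a mean of 1 CPM or more, for the 9 genes with at least 100 reads in their highest library. Nlrp3 was nearest to Arhgap25 (0.173), Stap1 (0.204) and Vav1 (0.224), and Nlrc4 to Prss46 (0.165), Cd52 (0.173) and Inpp5d (0.176). Aim2 was nearest to Arhgdib (0.0969), and Pycard to Ccdc9b (0.141), Stat6 (0.158) and Capg (0.203). Il1a was nearest to Oas3 (0.137), Rgs1 (0.181) and Cd53 (0.261). Casp1 lay nearest to Litaf (0.0810), Ldha (0.0964) and Arpc1b (0.110), and Casp4 to Ror2 (0.138), Ptprb (0.143) and Plac8 (0.168). Gsdmd was nearest to Fam169b (0.148), Gbp9 (0.151) and Mgarp (0.163), and Il18 to Spin2c (0.113), Armc6 (0.143) and Rpl5 (0.147), a ribosomal protein gene with copies elsewhere in the genome. The nearest of the other members to Nlrp3 was Aim2, at 0.415, which ranked 40 by this distance. Casp1 was the nearest member to Casp4, at 0.455 and rank 108, and to Il18, at 1.18 and rank 9992. The nearest member ranked 38 for Aim2, 98 for Nlrc4, 211 for Il1a, 391 for Pycard, 526 for Gsdmd and 617 for Casp1. With 5 libraries these distances are a description.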

How the data were processed

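RNA-seq was done on 5 mouse libraries, 1 per condition. Per the study's methods, bases under a quality score of 20 were trimmed, STAR aligned the reads to GRCm38/mm10, and HTSeq-count assigned them to exons of RefSeq Release 105. The submitters' processing notes name mm9, bcl2fastq 1.8.4 and DESeq instead or besides. Strandedness and the handling of reads with several matches are not given in the sources used here. The deposited counts are raw reads per transcript, without normalization. The deposited FPKM relate each count to transcript length and library total, and a recalculation matched them within a relative difference of 4.09e-05. The line of totals at the end of each file was left out.

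Of the 20178 transcripts, 19997 were paired with symbols through RefSeq. Il36a, Il36b and Il36g were found under older names. For a log2 ratio, 0.5 reads (adjusted for library size) were added to each count and both counts were divided by their library total. A gene counted as past the fold at 2-fold with an FPKM over 1 in at least 1 of the 2 libraries. Intervals (95%, Clopper-Pearson for ratios, Poisson for levels) cover counting error only, since each condition had 1 library. They take reads as independent. PCR copies are not independent molecules, so that the intervals may be too narrow even for counting error. The smallest measurable number was taken as 3 reads, 0.133 to 0.150 CPM. A median over the 10 genes used those with 3 reads or more in at least 1 of the 2 libraries, 9 genes for NPC against cortical astrocytes and 10 otherwise. No test was possible without replicates. The calculations were tested on simulated counts.

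Genes named are the 10 members, list genes past 4-fold with at most 4 per list and comparison, Il1rn, Il1r1, Il1rap, Myd88, Foxa2, Nr4a2, marker genes and nearest profiles. Il18bp, Il1r2, Il18r1 and Casp12 were named after their values were seen. The members and lists were chosen with earlier results of these data known. Alternatives were TMM (edgeR 4.0.16), DESeq2 1.42.0 size factors, scaling to the upper quartile, an addition of 5 reads or of none, other filters, a 2.6-fold cutoff, and a 2-fold ratio whose whole interval lies on one side of 1. Protein sequences were not used here. Python 3.11.15, numpy 2.4.6, pandas 2.3.3, scipy 1.17.1, matplotlib 3.10.9 and R 4.3.3 were used.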

Additional observations from a re-analysis of the deposited data

How the results depend on the processing

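Under the other scalings, reads added and cutoffs, the counts of genes past 2-fold stayed within 1.5 times the reported ones in 85 of 90 recalculations, and all 25 medians stayed between the second lowest and second highest of the 10 genes. All 249 single ratios stayed within their counting interval. These bounds were wide, so that staying within them shows little. The median for NPC against cortical astrocytes went from -2.06 to -1.35 with 5 reads added, inside bounds of -4.04 and 0.31. With an FPKM over 1 required in both libraries, 2 genes were lower in NF than in C, 2 were higher in C than in untransduced cells, 0 were lower in NF than in untransduced cells and 0 in NPC than in cortical astrocytes, since low genes drop out. Without any filter on expression 6 were lower in NPC than in cortical astrocytes, since Nlrp3, Nlrc4 and Aim2 come in. No paired analysis was possible because each condition had 1 library, and for the same reason no library could be left out. Depth limits Nlrc4, Il1b and the sensors in NPC most.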
